A study of Mus musculus with 8 samples.

Results

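The genes described here are 10 transcription regulators with similar names and different partners. They are 4 TCF/LEF genes (Lef1, Tcf7, Tcf7l1 and Tcf7l2), 2 E protein genes (Tcf4 and Tcf12) and 4 Id genes (Id1, Id2, Id3 and Id4). They were chosen by symbol from the 27036 genes of the count table, and all 10 were found and passed the expression filter that left 14034 genes for testing. TCF/LEF proteins bind DNA through an HMG box and recruit β-catenin, which turns them from repressors into activators when Wnt signaling is on. E proteins are basic helix-loop-helix factors that bind E-box sequences as dimers, often with a tissue-specific partner. Id proteins have the dimerization domain but not the DNA-binding basic region, so they hold E proteins off DNA, and their genes are classic targets of BMP and SMAD signaling. The names invite a mix-up, because the Wnt effector that is often called TCF4 is the product of Tcf7l2, whereas the gene Tcf4 encodes the E protein E2-2.

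Bulk RNA-seq was made from 3 WT prostates, 3 prostates with prostatic intraepithelial neoplasia (PIN) and 2 prostate cancer (PCa) tissues, each from a different mouse. The lesions came from hARtg-Osr1Cre mice, in which a human androgen receptor transgene at Rosa26 is switched on in cells that express Cre under the Osr1 promoter, on a mixed C57BL/6 and 129S1/SvImJ background. By the legends of the study the WT-control animals also carried Osr1-Cre, with the mTmG reporter and without the transgene, and the lesion animals carried the reporter as well. Ages of the individual mice are not given in the sources used here, and the human transgene was not analysed here. By the study's text, PCa lesions began at a later age than PIN lesions, so that lesion stage and age may not be told apart in PCa against PIN. By the study's text, lesion tissue was taken after microscopy had shown mostly atypical or tumor cells, and the WT mice were matched by sex and age. The RNA came from pieces of tissue that can hold several cell types, so that fewer cells of a type and less RNA per cell cannot be told apart.

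The libraries held 21751803 to 29730420 counts on genes. Pbsn, the androgen-driven probasin that marks luminal cells, was at 6552 CPM (read counts brought to 1 scale with the trimmed mean of M-values, TMM) or more in every WT library and at 8.53 and 60.8 CPM in the tumors. The luminal keratins did not follow it, with Krt8 at 453.0 and 333.3 CPM in PCa 1 and PCa 2, within the 197.9 to 975.2 CPM of WT, and Krt18 at 1251 and 587.7 CPM beside 621.2 to 1980 CPM, and neither was called in any comparison. The 5 smooth muscle markers summed to 1602 to 4174 CPM in WT and to 16.5 to 27.8 CPM in the tumors. The Spearman correlation across tested genes between both tumors was 0.839. Library numbers in the labels form separate series for WT 1, for WT 2 and WT 3, and for all PIN and PCa libraries. A batch effect, if each series was a batch, and a difference from WT therefore cannot be told apart. PCa against PIN lies within 1 series, though age may differ there.

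Upstream sequence is shown for 4 of the genes, chosen because the tumors set them apart: Lef1 and Tcf12, which were highest in PCa 2, Id4, which was highest in PCa 1, and Id2, which was high in both. RefSeq promoter windows of GRCm38.p6 were matched to 8 of the 10 genes, all 8 were found once in mm9, 3 of them touched an annotated exon there and are not shown, and of the remaining 5, 4 are shown. Each line gives the 250 bases before the outermost listed start, 5′ to 3′ on the strand of the gene, with an E-box (the form CAGCTG or the other form, with the letters CACCTG, searched on both strands) in capitals. In mm9 the windows lie at chr3:130812965-130813214 on the plus strand for Lef1, chr9:71959627-71959876 on the minus strand for Tcf12, chr12:25780958-25781207 on the minus strand for Id2 and chr13:48356235-48356484 on the plus strand for Id4.
Lef1: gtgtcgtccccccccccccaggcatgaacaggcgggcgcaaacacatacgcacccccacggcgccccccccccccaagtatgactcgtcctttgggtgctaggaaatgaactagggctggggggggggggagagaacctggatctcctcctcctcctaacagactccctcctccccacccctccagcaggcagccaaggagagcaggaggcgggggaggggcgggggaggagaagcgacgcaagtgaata
Tcf12: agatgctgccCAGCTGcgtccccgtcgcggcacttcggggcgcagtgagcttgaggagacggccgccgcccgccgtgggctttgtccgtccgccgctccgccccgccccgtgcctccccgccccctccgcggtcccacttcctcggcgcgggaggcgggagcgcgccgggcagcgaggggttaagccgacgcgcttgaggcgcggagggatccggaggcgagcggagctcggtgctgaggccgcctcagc
Id2: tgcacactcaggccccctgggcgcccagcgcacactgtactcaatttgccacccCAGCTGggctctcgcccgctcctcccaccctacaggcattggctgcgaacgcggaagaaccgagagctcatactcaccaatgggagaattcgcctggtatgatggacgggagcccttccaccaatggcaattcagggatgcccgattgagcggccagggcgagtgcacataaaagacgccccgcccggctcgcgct
Id4: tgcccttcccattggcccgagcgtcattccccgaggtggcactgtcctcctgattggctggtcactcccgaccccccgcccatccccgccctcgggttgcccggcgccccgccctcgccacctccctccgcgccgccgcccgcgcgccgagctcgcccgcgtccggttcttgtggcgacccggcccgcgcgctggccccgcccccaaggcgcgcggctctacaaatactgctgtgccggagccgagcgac
The E-box lay at -240 to -235 from the start of Tcf12 and at -196 to -191 from that of Id2, and none was found in the windows of Lef1 and Id4. Such an E-box was found in 27.7% of all 32851 windows of this length. A TCF/LEF core (one form being CTTTGAA, another being CTTTGAT, another being CTTTGTA and the last being CTTTGTT, on either strand) was found in none of the windows shown and in 14.8% of all windows.

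None of the 10 genes passed the thresholds in any comparison of the groups. With thresholds of 1 for the absolute log2 fold change and 0.05 for the adjusted p, the quasi-likelihood (QL) F-test of edgeR with Benjamini-Hochberg (BH) correction called 0 of 10 in PCa against WT, where 8.54% of all tested genes were called. It called 0 of 10 in PIN against WT, where the share of all genes was 0%, and 0 of 10 in PCa against PIN, where it was 5.72%. In PIN against WT, 492 of the 14034 genes (3.51%) had an unadjusted p under 0.05, none of the 10 among them, and DESeq2 called 39 genes (0.278%) and none of the 10. In PCa against WT, Id2 and Tcf4 had an unadjusted p under 0.05, where 27.5% of all genes did, and DESeq2 called these 2 genes, where it called 17.7% of all. In PCa against PIN, Tcf4 had one, where 22.8% of all genes did, and DESeq2 called it alone of the 10, where it called 14.1% of all. These member counts are no higher than the shares of all genes, or close to them.

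**Figure D1:**
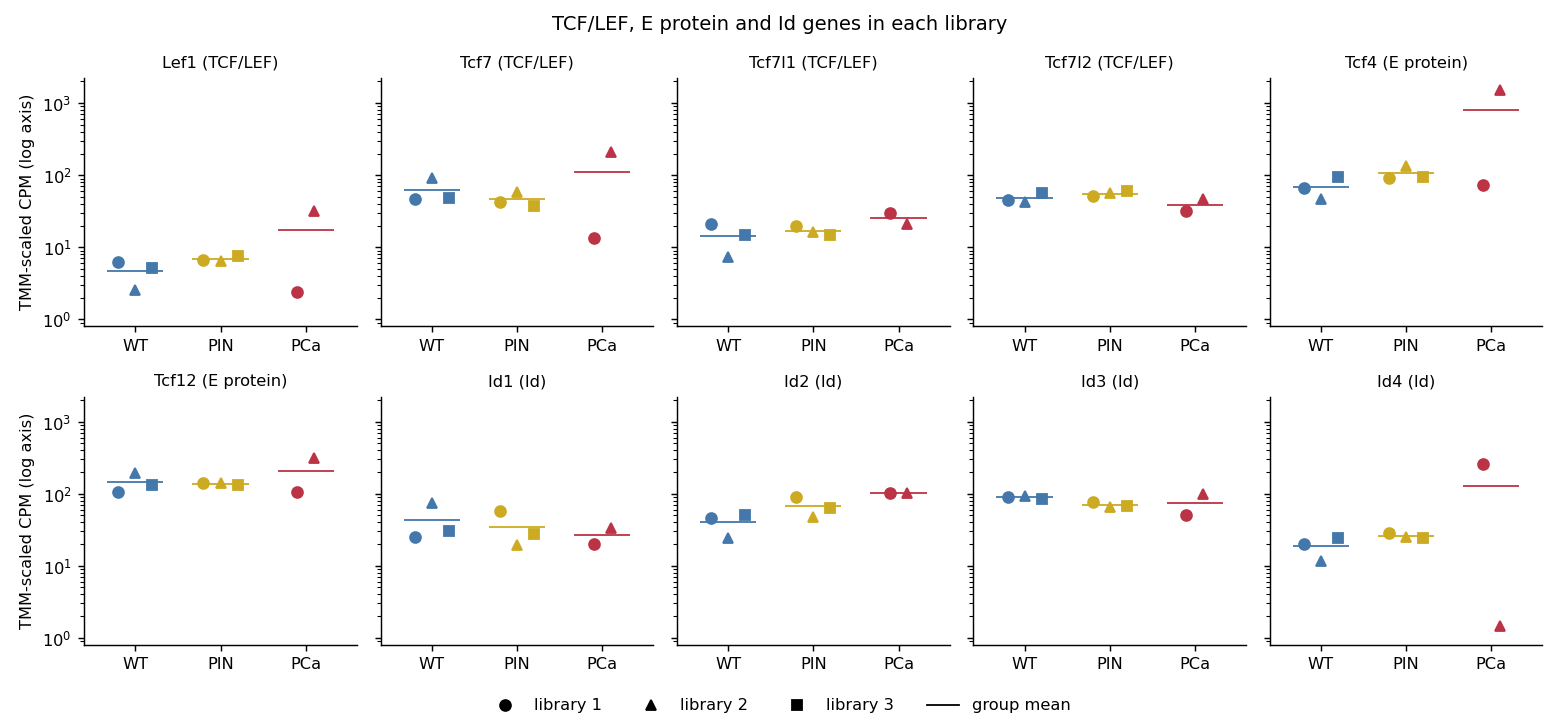
TMM-scaled CPM (log axis) of the 10 genes in each library of WT (blue), PIN (yellow) and PCa (red), where symbols mark the library number and lines the group mean. The 2 tumors lie over 4-fold apart for Lef1, Tcf7, Tcf4 and Id4, with Id4 at 254.6 CPM in PCa 1 and 1.44 CPM in PCa 2.

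The 2 tumors stood on opposite sides of the WT range for 5 of the 10 genes, where 12.2% of all tested genes did. PCa 1 lay above every WT library for 3 genes and below for 6, where 32.9% and 32.3% of all tested genes did. PCa 2 lay above for 6 and below for 1, against 31.9% and 36% of all genes. Lef1, Tcf7, Tcf12 and Id3 were below the WT range in PCa 1 and above it in PCa 2, and Id4 did the opposite. Of these 5 genes, Tcf7, Id3 and Id4 kept both positions under upper-quartile, DESeq2 and total-count scaling, whereas Lef1 and Tcf12 in PCa 1 came to lie within the WT range with upper-quartile and total-count scaling. With total counts, Id1 and Tcf7l2 in PCa 1 also came to lie within that range, and Tcf7l2 in PCa 2 above it. Scaling by total count put the median of all genes in PCa minus WT at 0.53 on the log2 scale, where it was -0.01 with TMM. Over 4-fold differences between the tumors were found for 4 of the 10 genes, where 18.5% of all tested genes differed as much. With 1 library of each tumor, these differences compare 2 tissues and carry no test.

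**Figure D2:**
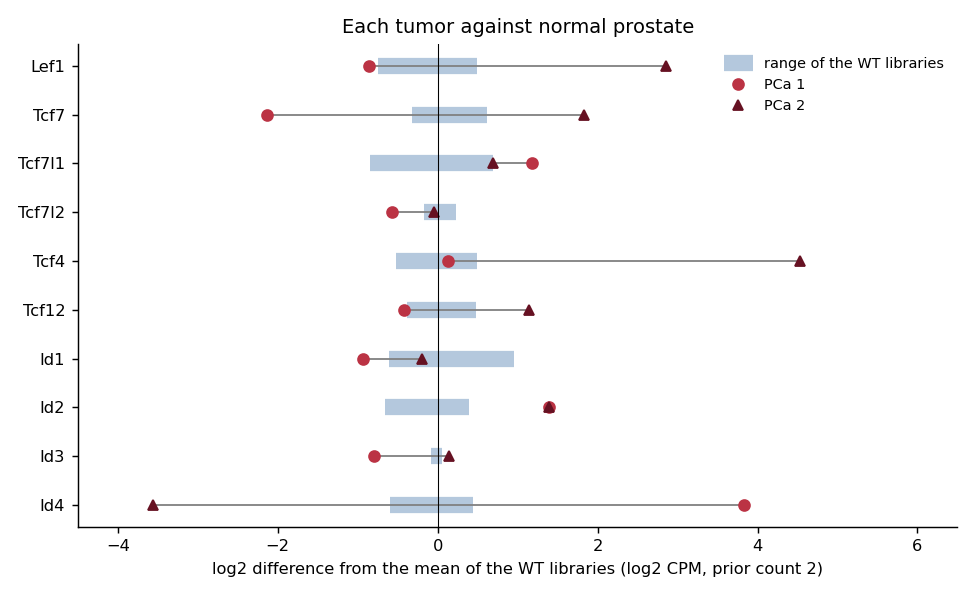
Log2 difference of PCa 1 (circles) and PCa 2 (triangles) from the mean of the WT libraries for each gene, on the log2 CPM scale with a prior count of 2, with the range of the WT libraries as blue bars. Tcf4 of PCa 2 lies 4.54 above the WT mean, both tumors coincide for Id2, and Id4 runs from 3.83 in PCa 1 to -3.56 in PCa 2.

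Among the TCF/LEF genes, Tcf7, which encodes the factor TCF1, took the largest share per length in normal prostate. The gene spans chr11:52065873-52096681 (minus strand) in mm9. Its level was 47.3, 90.4 and 47.7 CPM in the WT libraries, 42.7, 58.6 and 37.4 CPM in PIN, and 13.3 CPM in PCa 1 against 209.8 CPM in PCa 2. PCa 1 was thus the lowest and PCa 2 the highest of all 8 libraries, 15.8-fold apart in CPM. In PCa against WT the log2 fold change was 0.85 ± 0.88 (SE, n = 2 and 3, adjusted p = 0.576, edgeR QL F-test with BH correction). Without PCa 1 it was 1.78 (adjusted p = 0.0239) and without PCa 2 it was -2.20 (adjusted p = 0.0411), each with a single tumor that was assumed to vary like the other groups. In PCa against PIN the value was 1.27 ± 0.88 (adjusted p = 0.436, same test), 2.20 (adjusted p = 0.0126) without PCa 1 and -1.78 (adjusted p = 0.0788) without PCa 2. The counts of Tcf7 may be shared in part, since Gm16953 overlaps it on the same strand and A630014C17Rik on the opposite one, and the strand setting of the counting is not given in the sources used here.

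Lef1, the lymphoid enhancer-binding factor and itself a known target of Wnt signaling, was the least abundant of the 10 genes in every WT and PIN library on the TPM scale. The gene spans chr3:130813389-130927274 (plus strand). It was at 6.23, 2.58 and 5.23 CPM in WT and at 6.59, 6.51 and 7.61 CPM in PIN. PCa 1 had 2.38 CPM, from 74 counts, and PCa 2 had 32.4 CPM, from 944 counts. The tumors were 13.6-fold apart in CPM, and the 3 PIN libraries lay above the 3 WT libraries without overlap, as 12.9% of all genes lay outside the other group in PIN against WT. The log2 fold change was 1.89 ± 0.87 in PCa against WT (adjusted p = 0.208) and 0.56 ± 0.79 in PIN against WT (adjusted p = 1), by the edgeR QL F-test with BH correction. Without PCa 1, the value for PCa against WT was 2.80 (adjusted p = 0.00726), and that for PCa against PIN was 2.24 (adjusted p = 0.0166) in place of 1.33 ± 0.87 (adjusted p = 0.404). Without PCa 2 both turned negative, at -0.96 (adjusted p = 0.327) and -1.51 (adjusted p = 0.179).

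Tcf7l1, at chr6:72576372-72739248 (minus strand), and Tcf7l2, at chr19:55816300-56008144 (plus strand), were more alike in the 2 tumors. Tcf7l1, which encodes the mostly repressive factor TCF3 of the TCF/LEF family, was at 21.3, 7.25 and 14.6 CPM in WT, at 19.5, 16.2 and 14.7 CPM in PIN, and at 29.8 and 21.3 CPM in PCa 1 and PCa 2. PCa 1 was the highest library, and PCa 2 lay just within the WT range, or above it with DESeq2 and total-count scaling. Both tumors were above the 3 PIN libraries, a separation that 44.3% of all genes showed in PCa against PIN in either direction, with a log2 fold change of 0.60 ± 0.43 (adjusted p = 0.447, edgeR QL F-test with BH correction).

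Tcf7l2, the gene behind the Wnt effector called TCF4, had together with Id3 the smallest fold changes of the 10 genes in PCa against WT. It was at 45.6, 42.6 and 56.4 CPM in WT, at 50.9, 55.9 and 60.4 CPM in PIN, and at 32.1 CPM in PCa 1 and 46.3 CPM in PCa 2. PCa 1 was the lowest library, and both tumors were below the 3 PIN libraries. The log2 fold change was -0.30 ± 0.23 in PCa against WT (adjusted p = 0.452) and -0.51 ± 0.24 in PCa against PIN (adjusted p = 0.25), by the edgeR QL F-test with BH correction.

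Tcf4, the E protein gene whose product E2-2 is known from plasmacytoid dendritic cells and neurons, had the largest fold change of the 10 genes in both comparisons with PCa. It lies in mm9 on chromosome 18 from 69503800 to 69847621. Its level was 67.5, 46.1 and 93.4 CPM in WT, 91.2, 135.3 and 94.5 CPM in PIN, and 72.4 CPM in PCa 1 against 1539 CPM in PCa 2, where 44875 counts fell on it. PCa 1 was within the WT range, except with total-count scaling, where it was above, so that the group difference rested on PCa 2. The log2 fold change was 3.55 ± 0.99 in PCa against WT (adjusted p = 0.0657) and 2.91 ± 0.97 in PCa against PIN (adjusted p = 0.124), by the edgeR QL F-test with BH correction. Without PCa 2, these values were 0.09 and -0.54, and without PCa 1 they were 4.49 (adjusted p = 0.00141) and 3.86 (adjusted p = 0.00216). The 5 markers of plasmacytoid dendritic cells summed to 8.43 CPM in PCa 1 and to 0.206 CPM in PCa 2, with Spib at 0 in PCa 2. Of the sum in PCa 1, 5.73 CPM fell on Cd209d and 1.35 CPM on Siglech. WT had 1.54 to 1.88 CPM and PIN had 2.07 to 5.41 CPM, all low values.

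Tcf12, which encodes the broadly expressed E protein HEB, spans chr9:71692059-71959626 (minus strand) and was at 107.2, 193.8 and 130.8 CPM in WT and at 141.0, 140.9 and 131.8 CPM in PIN. PCa 1 had 104.6 CPM and PCa 2 had 308.9 CPM. The higher tumor was above and the lower tumor just below all WT libraries, and the log2 fold change was 0.52 ± 0.44 in PCa against WT (adjusted p = 0.485, edgeR QL F-test with BH correction). In PCa against PIN it was 0.58 ± 0.44 (adjusted p = 0.476, same test), 1.18 (adjusted p = 0.0462) without PCa 1 and -0.38 (adjusted p = 0.571) without PCa 2. Tcf3, the E2A gene and the remaining E protein, was not one of the 10 and was at 24.5 to 38.9 CPM in WT, 25.8 to 28.2 CPM in PIN, 76.1 CPM in PCa 1 and 49.1 CPM in PCa 2. Both tumors were above all other libraries for Tcf3. It was called in PCa against PIN, with a log2 fold change of 1.22 ± 0.27 (adjusted p = 0.0445, edgeR QL F-test with BH correction), and its value in PCa against WT was 1.02 ± 0.27 (adjusted p = 0.0577). The call in PCa against PIN was lost under 9 of 15 alternatives, among them the fits without WT 3, without each PIN library and without PCa 1, where its adjusted p was 0.0761 to 0.17.

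Id2, an Id gene expressed in many epithelia, was the gene of the 10 that was high in both tumors. The gene lies at chr12:25778666-25780957 (minus strand). Its level was 46.7, 24.6 and 50.9 CPM in WT, 90.9, 47.1 and 63.7 CPM in PIN, and 101.7 and 102.0 CPM in PCa 1 and PCa 2. No WT or PIN library reached the tumors, and PIN overlapped WT. With TMM it was the only one of the 10 whose PCa and WT libraries did not overlap, where 37.3% of all tested genes did not. Both tumors were also above every WT library for Tcf7l1 with DESeq2 and total-count scaling and for Tcf4 with total counts. The log2 fold change was 1.32 ± 0.37 in PCa against WT (adjusted p = 0.0656), 0.72 ± 0.34 in PIN against WT (adjusted p = 1) and 0.60 ± 0.37 in PCa against PIN (adjusted p = 0.378), by the edgeR QL F-test with BH correction. Over the alternatives its value in PCa against WT lay between 1.06 and 1.51 and its adjusted p between 0.0105, with DESeq2, and 0.153.

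Id4, an Id gene known from basal and progenitor cells of several glands, differed most between the tumors. The gene lies at chr13:48356796-48359405 (plus strand). It was at 19.9, 11.8 and 24.1 CPM in WT and at 29.0, 24.9 and 24.2 CPM in PIN. PCa 1 had 254.6 CPM, from 7913 counts, and PCa 2 had 1.44 CPM, from 42 counts, so that PCa 1 was 177-fold higher in CPM. Each tumor was outside the range of the WT and PIN libraries, on opposite sides, and the 3 PIN libraries lay just above the 3 WT libraries. The log2 fold change of 2.78 ± 1.35 in PCa against WT (adjusted p = 0.228, edgeR QL F-test with BH correction) combines these unlike tumors. Without PCa 1 it was -3.68 (adjusted p = 0.00509) and without PCa 2 it was 3.79 (adjusted p = 0.0035). In PCa against PIN the value was 2.30 ± 1.33 (adjusted p = 0.352, same test), -4.16 (adjusted p = 0.00413) without PCa 1 and 3.31 (adjusted p = 0.00534) without PCa 2. The basal markers Krt5, Krt14, Krt15 and Trp63 moved alongside, with a sum of 604.4 CPM in PCa 1 and 27.4 CPM in PCa 2 against 167.3 to 216.1 CPM in WT and 178.2 to 386.9 CPM in PIN. All 4 were above the WT range in PCa 1 and below it in PCa 2, and their part in the level of Id4 was not tested. A330033J07Rik overlaps Id4 on the opposite strand.

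Id1, the Id gene most closely tied to BMP signaling in textbooks, spread widely within the groups. The gene lies at chr2:152561987-152563146 (plus strand). It was at 25.2, 74.3 and 30.3 CPM in WT, at 58.0, 19.2 and 27.8 CPM in PIN, and at 20.1 and 33.6 CPM in PCa 1 and PCa 2. The 3 groups overlapped, and the log2 fold change in PCa against WT was -0.69 ± 0.62 (adjusted p = 0.516, edgeR QL F-test with BH correction).

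Id3, a related BMP-responsive gene at chr4:135699412-135701670 (plus strand), was steady within WT, at 90.2, 92.4 and 84.2 CPM, and lower in PIN, at 77.6, 65.1 and 67.5 CPM. PCa 1 had 51.3 CPM and PCa 2 had 98.4 CPM, the lowest and the highest of the 8 libraries. The 3 PIN libraries lay below the 3 WT libraries without overlap, with a log2 fold change of -0.34 ± 0.25 (adjusted p = 1, edgeR QL F-test with BH correction), and in PCa against WT it was -0.25 ± 0.28 (adjusted p = 0.608).

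**Figure D3:**
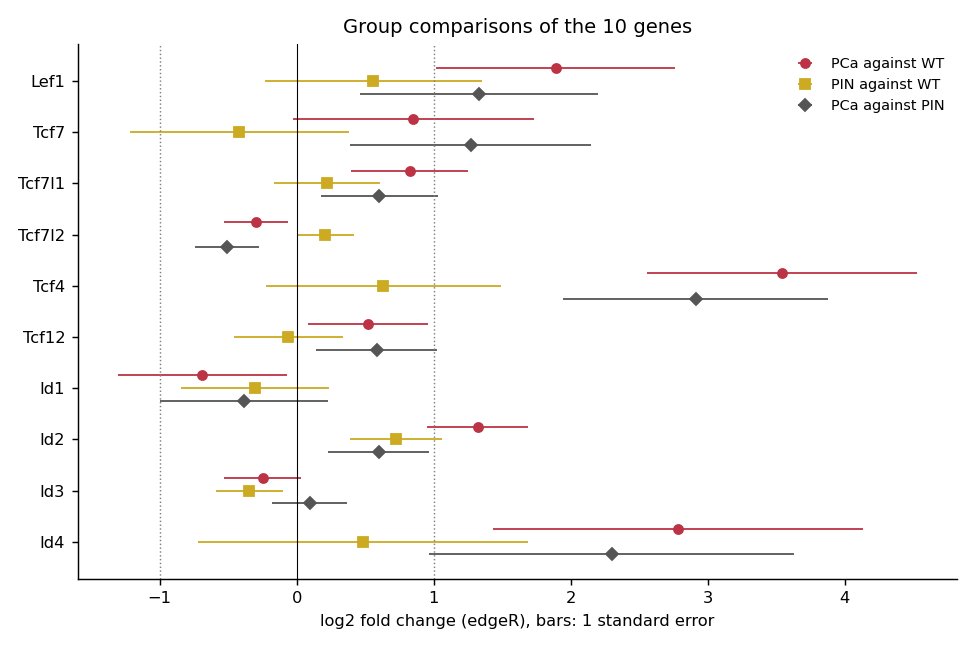
Log2 fold change of each gene in PCa against WT (circles), PIN against WT (squares) and PCa against PIN (diamonds), with bars of 1 standard error and dotted lines at the fold change threshold of 1 in either direction. Tcf4 has the largest values, 3.55 and 2.91 in the comparisons with PCa, and the wide bar of Id4, with a standard error of 1.35 in PCa against WT, goes with tumors on opposite sides.

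Levels of different genes were set side by side as TPM, which divides counts by exon length and does not use the TMM factors. In WT the order was Id3 (149.4 ± 17.8 TPM, SD, n = 3), Id1 (105.8 ± 47.8), Id2 (100.3 ± 46.0), Tcf12 (86.9 ± 15.2), Tcf7 (64.2 ± 14.6), Id4 (35.0 ± 16.0), Tcf4 (17.6 ± 8.21), Tcf7l2 (16.9 ± 4.84), Tcf7l1 (13.6 ± 7.55) and Lef1 (1.69 ± 0.83). Neighbours in this order had overlapping ranges, except Tcf7 over Id4 and Tcf7l1 over Lef1. In PIN, Id2 came first, at 179.8 ± 60.0 TPM, and the neighbours without overlap were Tcf12 over Tcf7, Id4 over Tcf4, Tcf4 over Tcf7l2 and Tcf7l1 over Lef1. In the tumors the order differed, with Id4 first in PCa 1 at 585.1 TPM and last in PCa 2 at 3.44 TPM, and Tcf4 first in PCa 2 at 498.1 TPM and the seventh in PCa 1 at 22.6 TPM.

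Within the E protein pair, Tcf12 made up 72.4% to 91.4% of the summed TPM in WT and PIN and 78.4% in PCa 1. In PCa 2, Tcf4 was the larger, at 66.4%. The TPM of the E protein Tcf4 over that of the Wnt effector Tcf7l2 was 1.06, 0.772 and 1.18 in WT, 1.28, 1.73 and 1.12 in PIN, 1.61 in PCa 1 and 23.7 in PCa 2. A ratio within a library does not depend on its scaling, though it depends on the exon lengths used.

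Within the TCF/LEF family, Tcf7 made up 52.3% to 81.5% of the summed TPM in WT and PIN and 83.0% in PCa 2. Tcf7l1 took the lead in PCa 1 with 50.7%, where Tcf7 had 26.9%. The family sum was 93.0 to 99.3 TPM in WT, 83.3 to 115.6 TPM in PIN, 67.4 TPM in PCa 1 and 359.4 TPM in PCa 2. TPM sums leave out the TMM factors, which were 0.754 to 0.931 in WT and 1.33 and 1.20 in PCa 1 and PCa 2. As TMM-scaled CPM the family sum was 120.4 to 142.9 in WT, 119.7 to 137.2 in PIN, 77.6 in PCa 1 and 309.7 in PCa 2.

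The summed TPM of the 4 Id genes over that of Tcf4 and Tcf12 was 4.39, 3.26 and 3.70 in WT and 5.0, 2.62 and 3.63 in PIN. It was 10.2 in PCa 1, where Id4 made up 54.9% of the Id sum, and 0.872 in PCa 2, where Id4 made up 0.526%. WT and PIN overlapped in this ratio, and the tumors lay outside both on opposite sides. Transcript sums say nothing on protein dimers.

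**Figure D4:**
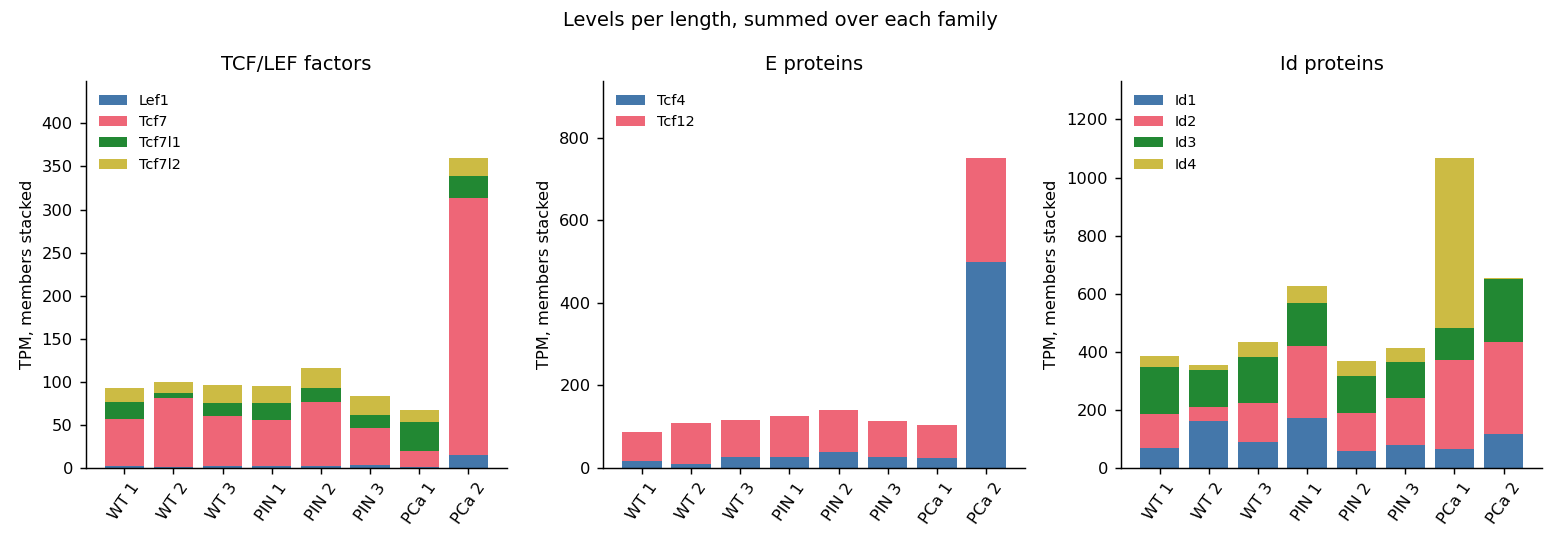
TPM of the members of each family stacked per library (TCF/LEF factors, E proteins and Id proteins, bars from 0 on separate axes). PCa 2 stands out in the TCF/LEF sum (359.4 TPM) and the E protein sum (750.1 TPM), and PCa 1 in the Id sum (1066 TPM). TPM leave out the TMM factors, which were 0.754 to 0.931 in WT and 1.33 and 1.20 in PCa 1 and PCa 2.

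The partners of the TCF/LEF proteins and their targets were followed in lists. Of 23 genes of the β-catenin transcription complex, 1 was called higher and 0 lower in PCa against WT, where 4.35% and 4.18% of all tested genes were, and the median of their log2 fold changes was 0.26 beside 0.01 over all genes. The gene called was Tle6, a short relative of the Groucho corepressors, which was at 1.33 to 2.49 CPM in WT, 13.1 CPM in PCa 1 and 59.2 CPM in PCa 2 (log2 fold change 4.27 ± 0.62, adjusted p = 0.0105, edgeR QL F-test with BH correction), a call lost under 1 of 15 alternatives, the model of the 2 groups compared (adjusted p = 0.0697). Ctnnb1, which encodes β-catenin itself, was at 463.1, 581.9 and 473.6 CPM in WT, 733.4 CPM in PCa 1 and 1244 CPM in PCa 2 (log2 fold change 0.97 ± 0.30, adjusted p = 0.0876, same test). Both tumors were above every WT and PIN library for Tle6 and for Ctnnb1.

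Of 17 tested Wnt target genes, 3 were called higher and 0 lower in PCa against WT, beside 4.35% and 4.18% of all tested genes, and 0 in PIN against WT. The median over the 17 targets was 1.93 on the log2 scale in PCa against WT. Those called were Apcdd1, a membrane inhibitor of Wnt, Notum, a secreted Wnt deacylase, and Ephb3, an ephrin receptor, with log2 fold changes of 5.39 ± 1.27, 5.10 ± 0.95 and 3.38 ± 0.75 and adjusted p of 0.0412, 0.0228 and 0.0353 (edgeR QL F-test with BH correction). Notum was at 1.04 to 3.26 CPM in WT, 12.5 CPM in PCa 1 and 150.2 CPM in PCa 2, and its log2 fold change was 2.41 without PCa 2. The calls of Apcdd1, Notum and Ephb3 were lost under 10, 6 and 6 of 15 alternatives. Apcdd1 lost it without any single library other than PCa 1 (adjusted p = 0.074 to 0.218), with a value of 1.69 without PCa 2. Notum lost it without any WT library and without PIN 3 (adjusted p = 0.0522 to 0.0812), and Ephb3 without WT 3, any PIN library or PCa 1 (adjusted p = 0.0502 to 0.118). Axin2, a negative regulator and common readout of the pathway, split like Lef1 and Tcf7, with 101.5, 150.3 and 143.5 CPM in WT, 42.7 CPM in PCa 1 and 681.1 CPM in PCa 2. Its log2 fold change was 1.46 ± 0.87 (adjusted p = 0.322, same test). In PCa 2, 14 of the 17 targets were above the WT range and 1 was below, where 31.9% and 36% of all genes were. In PCa 1, 7 were above and 8 below, where 32.9% and 32.3% of all genes were. The targets lay at a median of 2.39 and -0.43 from the WT mean on the log2 scale in PCa 2 and PCa 1. The WT libraries themselves lay at -0.60 to 0.32, so that PCa 1 was within their range and PCa 2 above it.

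Of the partners and modulators of E proteins, 14 of the 32 found in the table were tested, and 0 were called higher and 2 lower in PCa against WT, beside the same 4.35% and 4.18% of all genes, and the median of their log2 fold changes was -1.50. Atoh8, a helix-loop-helix factor, was at 14.3, 4.67 and 13.4 CPM in WT and at 0.579 and 1.65 CPM in the tumors, with a log2 fold change of -3.28 ± 0.67 (adjusted p = 0.0288, edgeR QL F-test with BH correction). Bhlha15, the secretory cell factor MIST1, was at 257.7, 191.5 and 184.5 CPM in WT and at 65.2 and 105.6 CPM in the tumors, with a log2 fold change of -1.31 ± 0.33 (adjusted p = 0.0491, same test). These calls were lost under 7 and 11 of 15 alternatives. Atoh8 lost it without WT 1, WT 3 or any PIN library (adjusted p = 0.055 to 0.0843), and Bhlha15 without any single library other than PCa 2 (adjusted p = 0.0681 to 0.105).

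Of 22 tested genes of the BMP and SMAD axis, which feeds into the Id genes, 0 were called in any of the 3 comparisons, and the median log2 fold change was 0.05 in PCa against WT. Their summed level was 1021 to 1189 CPM in WT and 1195 and 1191 CPM in PCa 1 and PCa 2. These like sums hold genes that moved in both directions. In PCa 1, 5 of the 22 were above the WT range and 6 below, where 32.9% and 32.3% of all genes were. In PCa 2, 8 were above and 6 below, where 31.9% and 36% of all genes were.

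**Figure D5:**
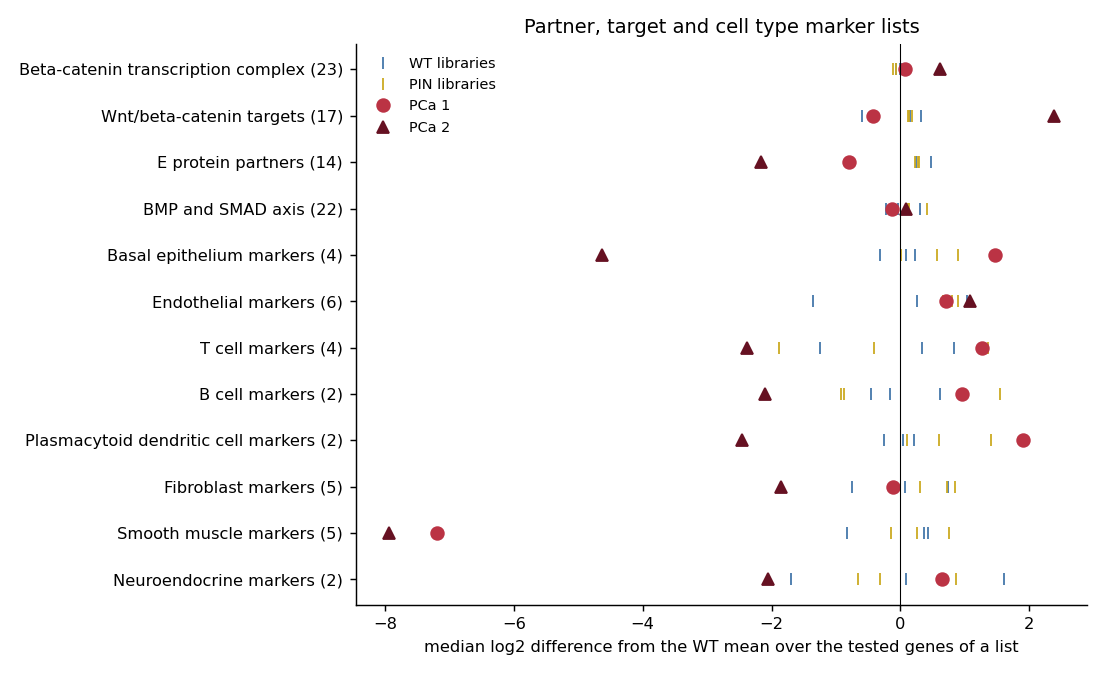
Median log2 difference from the WT mean over the tested genes of each list (number in brackets), for WT and PIN libraries (ticks), PCa 1 (circles) and PCa 2 (triangles). The Wnt targets are at 2.39 in PCa 2 and at -0.43 in PCa 1, which is within the WT range of -0.60 to 0.32. The basal markers are at -4.63 in PCa 2 and 1.47 in PCa 1, and both tumors are far below WT for smooth muscle markers.

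Levels of other cell types differed between the tumors as well, and their part in the levels of the 10 genes was not tested. The 6 T cell markers, of a lineage in which Tcf7 and Lef1 are strong, summed to 11.0 CPM in PCa 1 and 1.27 CPM in PCa 2. Cd3d was at 0 in PCa 2. WT had 1.5 to 8.06 CPM and PIN had 1.05 to 10.5 CPM, so that PIN libraries were spread about as widely as the tumors. The 4 B cell markers summed to 5.21 and 0.480 CPM, beside 1.59 to 4.50 CPM in WT and 1.15 to 7.82 CPM in PIN. The 6 endothelial markers, of a cell type rich in Id1 and Id3, summed to 104.5 and 100.7 CPM in PCa 1 and PCa 2 and to 68.1 to 100.3 CPM in WT. Of these 6, 1, Emcn, was called lower in PCa against WT, where 4.18% of all tested genes were. The 5 fibroblast markers summed to 610.1 CPM in PCa 1 and 261.1 CPM in PCa 2 beside 473.4 to 788.0 CPM in WT. Of these 5, 0 were called in PCa against WT, where 8.54% of all tested genes were. The 5 neuroendocrine markers summed to 2.22 and 0.240 CPM in PCa 1 and PCa 2, with Insm1 at 0 in each, beside 0.317 to 5.54 CPM in WT.

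All 5 smooth muscle markers were called lower in PCa against WT, where 4.18% of all tested genes were, and so was Pbsn. Of the tested basal, T cell, B cell, plasmacytoid dendritic and neuroendocrine markers, 0 were called in PCa against WT, where 8.54% of all tested genes were. These are few genes, and errors were wide where the tumors differed, as for Krt14, with a standard error of 1.44 on the log2 scale. A count of 0 therefore says little on these cell types.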

How the data were processed

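RNA of 8 mouse prostate tissues (3 WT, 3 PIN and 2 PCa) was sequenced as paired-end libraries after depletion of ribosomal RNA. The authors trimmed the reads with cutadapt 1.9.1, aligned them to mm9 with HISAT2 2.1.0 and counted them per gene with HTSeq 0.6.1, and the deposited values are raw counts, with the exon length of each gene as another deposited value. The strand setting of the counting is not given in the sources used here. Groups and library numbers were taken from the sample labels.

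Counts were tested in R 4.3.3 with the quasi-likelihood F-test of edgeR 4.0.16, TMM library sizes, genes above 1 CPM in at least 2 libraries, 1 model of 3 groups with 5 residual degrees of freedom, and Benjamini-Hochberg adjustment over all 14034 tested genes. Calls needed an adjusted p under 0.05 and a log2 fold change beyond 1 in either direction. Standard errors were the fold change over the square root of F. CPM are TMM-scaled, and TPM were computed from counts and exon length. The p-values measure the spread between these mice, and total counts of 21751803 to 29730420 per library limit the precision of genes with few counts. The steps were tested on simulated data. Promoter windows came from RefSeq (GRCm38.p6).

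Alternatives were upper-quartile sizes, DESeq2 1.42.0, limma-trend (limma 3.58.1), filterByExpr, no filter, a model of the 2 groups compared, a replicate block, leaving out each library, and TPM without the gene of the highest WT count. The 10 genes and all lists (β-catenin transcription complex, Wnt targets, E protein partners, BMP and SMAD axis, and cell type markers) were chosen with earlier results of these data known. Named from the lists are the genes called in PCa against WT, at most 6 per list, with Ctnnb1, Axin2 and Tcf3. For Tcf4, Lef1 and Id1 the 3 genes with the nearest profile were taken, by the root mean square difference of log2 CPM (prior count 2) minus the WT mean over 8 libraries. Counts and sums of the luminal and of the glial and neuronal markers are not reported here.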

Additional observations from a re-analysis of the deposited data

How the results depend on the processing

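The number of the 10 genes called in PCa against WT was 0, and it was 2 with DESeq2 and 0 to 4 when 1 library was left out. In PCa against PIN it was 0, 1 with DESeq2 and 0 to 5 when 1 library was left out. In PIN against WT it was 0 under every alternative. The genes called without PCa 1 were Lef1, Tcf7, Tcf4 and Id4 in PCa against WT, with Tcf12 added in PCa against PIN, and without PCa 2 Tcf7 and Id4 in PCa against WT and Id4 in PCa against PIN. Over all genes, the 1198 calls in PCa against WT became 2487 with DESeq2, 123 in a model of 2 groups, 413 with the replicate block and 347 to 2477 when 1 library was left out. The 0 calls in PIN against WT became 39 with DESeq2. The 803 calls in PCa against PIN became 1984, 359, 151 and 78 to 2251 in the same order. Of the 10 genes, the replicate block called none, and samples with the same number correlated at -0.0562 to 0.284 (mean 0.0992 over 7 pairs, beside -0.0505 for pairs of different numbers), so the numbers were not taken to pair the samples. Directions turned with limma-trend for Tcf7 in PCa against WT (-0.15) and Id4 in PCa against PIN (-0.41), and in PIN against WT for Tcf12 with upper-quartile sizes (0.019) and the replicate block (0.019). The cause was not tested.

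When 1 library was left out, these log2 fold changes took both signs. In PCa against WT they ranged from -0.96 to 2.80 for Lef1, -2.20 to 1.78 for Tcf7, -0.44 to 1.11 for Tcf12, -0.78 to 0.16 for Id3, -3.68 to 3.79 for Id4 and -1.61 to 2.38 for Axin2. In PIN against WT they ranged from -0.10 to 0.62 for Tcf7l1, -0.23 to 0.21 for Tcf12 and -0.89 to 0.34 for Id1. In PCa against PIN they ranged from -1.51 to 2.24 for Lef1, -1.78 to 2.20 for Tcf7, -0.54 to 3.86 for Tcf4, -0.38 to 1.18 for Tcf12, -0.78 to 0.21 for Id1, -0.43 to 0.50 for Id3 and -4.16 to 3.31 for Id4. With 1 PCa library the spread was pooled over the other groups. TPM levels without the gene of the highest WT count moved by less than the spread between replicates. Lef1 in PCa 1 and Id4 in PCa 2 rest on 74 and 42 counts, and 2 tumors limit every comparison with PCa.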

Other observations

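The tested genes whose profile over the 8 libraries was most like that of 1 gene of each family were as follows, as a description without a test, over libraries that share their scaling. For Tcf4 they were Rbms3, an RNA-binding protein gene (root mean square difference 0.4 on the log2 scale), Sorbs2 (0.422) and Prex2 (0.426). Rbms3 was at 27.9 to 37.7 CPM in WT, 34.9 CPM in PCa 1 and 504.2 CPM in PCa 2, and Sorbs2 at 84.3 to 141.9 CPM, 96.7 CPM and 1551 CPM. Prex2 was at 11.5 to 13.4 CPM in WT, 8.21 CPM in PCa 1 and 197.4 CPM in PCa 2. In PCa 2 these 3 genes were above the WT range, as Tcf4 was, and in PCa 1 Rbms3 and Sorbs2 lay within it and Prex2 below it.

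For Lef1 they were Sox6, an HMG-box gene (0.199), Hoxa13, a homeobox gene of the urogenital tract (0.222), and Stard13 (0.285). Sox6 was at 1.95 to 4.84 CPM in WT, 1.77 CPM in PCa 1 and 35.7 CPM in PCa 2, and Hoxa13 at 9.88 to 21.5 CPM, 6.60 CPM and 106.6 CPM. For Id1 they were C230081A13Rik (0.301), Tgfa, which encodes an EGF receptor ligand (0.309), and Lysmd3 (0.328). Tgfa was at 25.3 to 67.6 CPM in WT, 23.3 to 41.6 CPM in PIN, 21.2 CPM in PCa 1 and 48.2 CPM in PCa 2.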
